A study of Mus musculus with 12 samples.

Results

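Lungs of smoke-exposed Rora mutant mice (4 arrays) were compared with lungs of wild-type mice kept in room air (4 arrays), across the autosomal probes of the array. A probe entered the comparison if it mapped to chromosomes 1 to 19 and was well above background on at least 4 of these 8 arrays. This kept 28634 of the 39309 autosomal probes, out of 41174 probes on the whole array, and left out 10675. The kept probes stood for 18761 genes, each read at its brightest kept probe, out of the 27591 that the whole array stands for. Smoke and genotype differed together between the groups, so the contribution of either one cannot be told apart from this comparison alone.

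The study profiled whole lung RNA from 12 mice, 1 single-colour Agilent array per mouse, in 3 groups of 4 that the labels call biological replicates. All mice had the C57Bl/6 background, and the labels give every one as male with an age of 12 weeks. The room-air mice were wild type and received no smoke. The mutants carried a mutation of Rora, whose allele is not given in the sources used here, and breathed cigarette smoke from a smoking machine on 5 days a week for 4 months. The remaining group was wild type under that smoke schedule, and its values are given beside the others because it shares the smoke with the mutants and the genotype with the room-air mice. None of the 3 groups held mutants in room air. The labels do not say at which point of the exposure the age was taken.

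Rora encodes ROR-alpha, a nuclear receptor that binds DNA as a monomer and activates transcription. In the circadian clock it competes with REV-ERB repressors for the same DNA sites, it is required for the development of group 2 innate lymphoid cells, and it regulates lipid genes in several tissues. Cigarette smoke holds polycyclic aromatic hydrocarbons and oxidants. The aryl hydrocarbon receptor (AhR) senses the former and switches on cytochrome P450 genes, and the factor NRF2 responds to the latter and switches on glutathione and quinone-reducing enzymes.

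Levels are log2 units relative to the 75th percentile of each array, so a level of 0 equals that percentile. Values on single arrays are listed from replicate 1 to replicate 4, a naming order to which the labels give no meaning. Differences are mutant smoke minus room air on the same log2 scale, where 1 unit is a 2-fold change, with the standard error of the limma fit after the ± sign. Group means carry the SD of 4 arrays. A gene passed if its limma p, adjusted by the Benjamini-Hochberg method over all 29784 kept probes of any chromosome, was under 0.05. Probe positions refer to mouse build mm8.

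The 8 arrays were alike in quality, with 71.6% to 73.5% of spots well above background. Arrays of the same group correlated at 0.994 to 0.997 over the kept probes and arrays of different groups at 0.987 to 0.992, a description of arrays that share most of their signal. The arrays lay on 3 slides, and each slide held both groups. The defining genes of lung epithelium were bright in both groups, surfactant protein C (Sftpc) at 9.30 and 9.27 and the club cell secretoglobin Scgb1a1 at 8.69 and 8.64 in room-air and mutant lungs. One property went against the labels. Xist, the RNA that coats the inactive X chromosome in female cells, was at 4.04 ± 0.07 on the room-air arrays (n = 4), at -5.39 ± 2.09 on the wild-type smoke arrays (n = 4) and at -4.61 ± 1.26 on the mutant arrays (n = 4). Genes of the Y chromosome, Uty, Kdm5d and Ddx3y, passed background on all 8 smoke arrays and on 0 of the 4 in room air; Eif2s3y, also Y-linked, did so on 2 of the 4, at -6.93 ± 1.57 (SD, n = 4) in room air and 1.40 ± 0.22 (SD, n = 4) in the mutants. The room-air group, labelled male, thus differed from both smoke groups in sex-linked transcripts as completely as in smoke. For any autosomal difference from room air, smoke and the sex-linked signal cannot be told apart, whereas the 2 smoke groups were alike in that signal. No room-air array was free of it, so no value without these arrays could be given.

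Of the 18761 autosomal genes, 3109 passed (16.6%), with 1229 higher in the mutant smoke lungs (6.55%) and 1880 lower (10%). Each count of list members below is to be read beside these shares. The median change over all genes was -0.0061, and the median size of a change that passed was 0.42. Changes of at least 2-fold were found for 96 genes that were higher and 139 that were lower. Over probes, 1755 were higher (6.13%) and 2969 lower (10.4%). Wild-type smoke lungs differed from room air in 833 genes (4.44%) and mutant from wild-type smoke lungs in 1127 (6.01%), each over the same genes. In 3963 genes (21.1%) the 4 arrays of one group did not overlap the 4 of the other. The share of genes that passed ranged from 14.2% on chromosome 2 to 20% on chromosome 9, where Rora lies. Without mutant replicate 4 the counts were 809 higher and 1254 lower. Under a different background correction (normexp on the raw spot signals) 64 were higher and 65 lower, and this setting ended the call of most genes named below. With arrays scaled to their median instead, 1666 were higher and 1590 lower, so higher genes made up 51.2% of the calls in place of 39.5%; under normexp they made up 49.6%.

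Rora itself was lower in every mutant. Its level was 1.07, 1.16, 1.08 and 1.09 on the room-air arrays, 1.15, 1.23, 1.20 and 1.16 on the wild-type smoke arrays and -0.95, -0.92, -1.14 and -1.04 on the mutant arrays. The mutant arrays lay far below the other 8, which overlapped each other. The difference from room air was -2.11 ± 0.06 (limma adjusted p = 5.05e-10), and an exact permutation test gave p = 0.0286, two-sided, the smallest that 4 arrays against 4 can reach. This probe lies at chr9:69177968-69178027. The other kept Rora probes, at chr9:69178068-69178127 and chr9:69184462-69184521, differed by -2.29 and -2.25. Where the probes stand relative to the mutation is not given in the sources used here.

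Cyp1b1 encodes a cytochrome P450 that oxidises polycyclic aromatic hydrocarbons. Its probe at chr17:79615533-79615592 read -2.41, -2.53, -2.00 and -2.27 in room air and 2.05, 2.16, 2.12 and 2.16 in the mutants. The mutant arrays were all high and the room-air arrays all low, with no overlap. The difference was 4.43 ± 0.11 (limma adjusted p = 2.6e-10). In wild-type smoke lungs the mean level was 2.29 ± 0.17 (n = 4), and the mutant minus wild-type smoke difference of -0.17 did not pass (limma adjusted p = 0.436).

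Angptl4 encodes a secreted inhibitor of lipoprotein lipase that peroxisome proliferator-activated receptors (PPARs) and glucocorticoids induce. At chr17:33381815-33381874 it read 2.46, 2.81, 2.51 and 2.15 in room air, 3.30, 3.57, 4.14 and 4.45 in wild-type smoke and 4.88, 5.09, 4.95 and 5.16 in mutant smoke. The 3 groups did not overlap, and they rose in that order. The mutants were higher than room air by 2.54 ± 0.22 (limma adjusted p = 3.22e-05) and higher than smoke-exposed wild type by 1.15 (limma adjusted p = 0.0129).

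**Figure D1:**
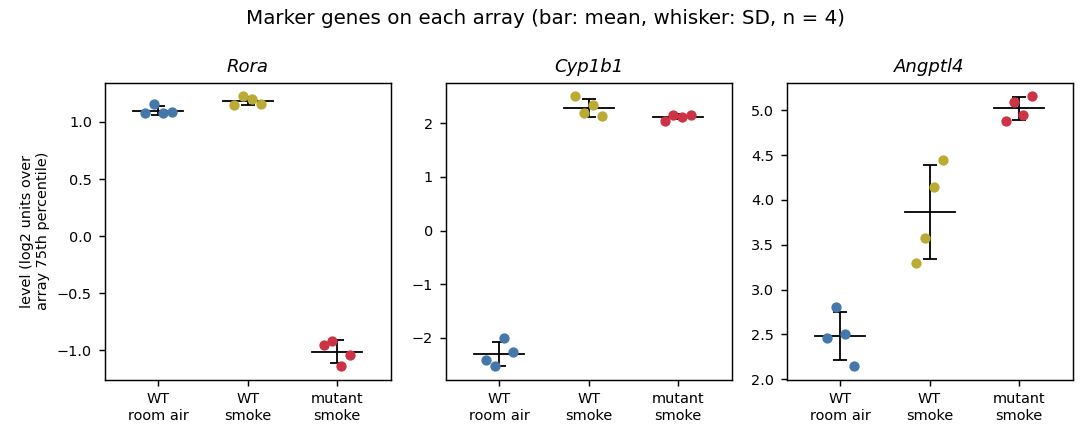
Levels of Rora, Cyp1b1 and Angptl4 on each of the 12 arrays, as log2 units relative to each array's 75th percentile, with the mean as a bar and the SD as whiskers (n = 4 per group). Rora is low on the mutant arrays alone, Cyp1b1 is high on all 8 smoke arrays, and Angptl4 has means of 2.48, 3.87 and 5.02 in the 3 groups.

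All 6 measured AhR target genes rose, beside 6.55% of all autosomal genes, with a median change of 2.65. The other list members, 2 of 8, had no kept autosomal probe or were not found on the array. Cyp1a1, the P450 regarded as the standard read-out of AhR activity, read 1.18, 1.34, 1.39 and 0.49 in room air and 3.88, 4.61, 4.60 and 4.69 in the mutants, a rise of 3.34 ± 0.24 (limma adjusted p = 8.46e-06). Ahrr, which encodes the repressor that feeds back on the receptor, read -4.68, -5.02, -4.51 and -4.77 in room air and -1.23, -0.40, -0.76 and -0.51 in the mutants, a rise of 4.02 ± 0.23. Both genes were separated between the groups by more than 2 log2 units on every array. Nqo1, a quinone reductase, rose by 1.95 ± 0.15, Aldh3a1, an aldehyde dehydrogenase, by 1.22 ± 0.15, and Tiparp, a further feedback repressor, by 0.33 ± 0.06. In smoke-exposed wild type the same 6 genes had a median difference from room air of 2.90, and the median difference between the smoke groups was -0.23. Of the 6, Aldh3a1 was lower in mutant than in wild-type smoke lungs by 0.67 (limma adjusted p = 0.0263). With normexp background correction 3 of the 6 passed.

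The receptor binds the core letters GCGTG, and the promoters of 4 of these genes are shown because they held that core. The sequences span 250 bases before to 50 bases after the start of the gene, from RefSeq on build GRCm38.p6, a different build from that of the probes, and read 5′ to 3′ on the gene's own strand. Capitals mark GCGTG, or CACGC where the core lies on the opposite strand. Cyp1a1 is at chr9:57697363-57697662 (plus strand), Cyp1b1 at chr17:79715012-79715311 (minus strand), Ahrr at chr13:74292282-74292581 (minus strand) and Tiparp at chr3:65528197-65528496 (plus strand).
Cyp1a1: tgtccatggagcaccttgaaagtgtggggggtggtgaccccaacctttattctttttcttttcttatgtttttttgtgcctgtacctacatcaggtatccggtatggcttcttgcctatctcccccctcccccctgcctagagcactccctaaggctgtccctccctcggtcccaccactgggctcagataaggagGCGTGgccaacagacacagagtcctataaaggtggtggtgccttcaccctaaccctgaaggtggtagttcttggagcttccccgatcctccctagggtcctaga
Cyp1b1: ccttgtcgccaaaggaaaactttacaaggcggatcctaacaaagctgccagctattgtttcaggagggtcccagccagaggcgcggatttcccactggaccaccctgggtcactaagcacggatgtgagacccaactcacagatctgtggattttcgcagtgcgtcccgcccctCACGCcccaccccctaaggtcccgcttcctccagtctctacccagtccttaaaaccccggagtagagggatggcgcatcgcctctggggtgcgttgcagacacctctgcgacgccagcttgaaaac
Ahrr: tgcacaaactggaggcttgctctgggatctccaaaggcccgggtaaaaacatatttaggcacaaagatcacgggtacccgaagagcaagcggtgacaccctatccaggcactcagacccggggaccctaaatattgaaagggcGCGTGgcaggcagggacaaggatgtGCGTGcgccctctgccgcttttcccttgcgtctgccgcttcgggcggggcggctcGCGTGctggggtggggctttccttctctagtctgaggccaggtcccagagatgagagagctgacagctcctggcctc
Tiparp: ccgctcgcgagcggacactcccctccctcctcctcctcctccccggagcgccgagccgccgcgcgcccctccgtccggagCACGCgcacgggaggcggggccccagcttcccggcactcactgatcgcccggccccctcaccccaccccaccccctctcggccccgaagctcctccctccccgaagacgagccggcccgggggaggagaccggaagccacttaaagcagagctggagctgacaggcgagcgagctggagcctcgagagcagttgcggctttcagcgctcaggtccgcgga
Ahrr held 3 matches and each of the others held 1. A promoter was available for 5 of the 6 genes, and Nqo1 held no match. Over the 27025 genes whose promoters were searched, 35.2% held the core on either strand. The letters of the antioxidant element, TGACNNNGC, were found in 10 of 37 promoters of the NRF2 list described next, beside 14.0% of all genes. Among the NRF2 members that passed, 5 of 21 promoters held them. The ROR core letters AGGTCA were found in 6 of 18 promoters of the clock list described below, beside 18.1% of all genes. Among the clock members that passed, 3 of 11 promoters held them, and those of Nr1d1, Dbp and Hlf held none. The sterol element TCACNCCAC was found in 0 of 17 promoters of the cholesterol list, beside 1.44% of all genes. These matches describe letters in a short window and nothing about binding.

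Of 45 measured NRF2 and glutathione genes, 26 rose and 1 fell, with a median change of 0.29. Slc7a11, the cystine importer that feeds glutathione synthesis, read -5.89, -6.42, -6.05 and -5.95 in room air and -4.21, -3.67, -4.17 and -3.35 in the mutants, a rise of 2.23 ± 0.20 (limma adjusted p = 4.55e-05). The groups were clearly apart. Cbr3, a carbonyl reductase, read 3.36, 3.47, 3.44 and 3.34 and 4.76, 4.98, 4.68 and 4.89, a rise of 1.42 ± 0.08. It was lower in mutant than in wild-type smoke lungs by 0.34 (limma adjusted p = 0.0322). The carboxylesterase Ces1g rose by 1.44 ± 0.09, Akr1b8, an aldo-keto reductase, by 0.81 ± 0.07, and sulfiredoxin (Srxn1), which repairs oxidised peroxiredoxins, by 0.85 ± 0.07. The gene that fell was Gclc, the catalytic subunit of glutamate-cysteine ligase, at -0.45, whereas its partner Gclm was at 0.60; both are named after their values were seen, and the call of Gclc ended without room-air replicate 2 or 3 or mutant replicate 1, 3 or 4. In smoke-exposed wild type Gclc was higher than in room air, by 0.50 (limma adjusted p = 0.0438). Its mutant minus wild-type smoke difference was -0.94 (limma adjusted p = 0.00166). A transcript with a clone name at chr9:77576092-77576151, near the Gclc probe at chr9:77579173-77579232, was higher than in room air by 0.35 (limma adjusted p = 0.038). It too was chosen after its value was seen, and whether it belongs to Gclc was not tested. The list's median difference from room air was 0.35 in smoke-exposed wild type. Normexp left 8 higher and 0 lower.

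Of 7 metallothionein and zinc transport genes 2 rose and 0 fell, the metal-binding proteins Mt2 by 1.10 ± 0.09 and Mt1 by 0.53 ± 0.09. A further, dimmer probe of Mt1 gave 1.38. In smoke-exposed wild type they differed from room air by 1.31 and 0.70.

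The growth factor relative Gdf15, a stress-induced cytokine, read -2.35, -2.35, -2.43 and -2.45 in room air and -0.63, -0.51, -0.84 and -0.59 in the mutants. Every mutant array was above every room-air array, and the rise was 1.76 ± 0.09 (limma adjusted p = 5.46e-07). It belonged to a list of 29 p53 and DNA damage genes, of which 12 rose and 0 fell, with a median of 0.21. Cdkn1a, the cell-cycle inhibitor p21, rose by 0.70 ± 0.08 and exceeded its level in wild-type smoke lungs by 0.47 (limma adjusted p = 0.00793). Gadd45g rose by 0.93 ± 0.07 and Gadd45b by 0.45 ± 0.09, both growth-arrest genes; a further probe of Gadd45b gave 0.07 and did not pass. Normexp left 3 of the 12.

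**Figure D2:**
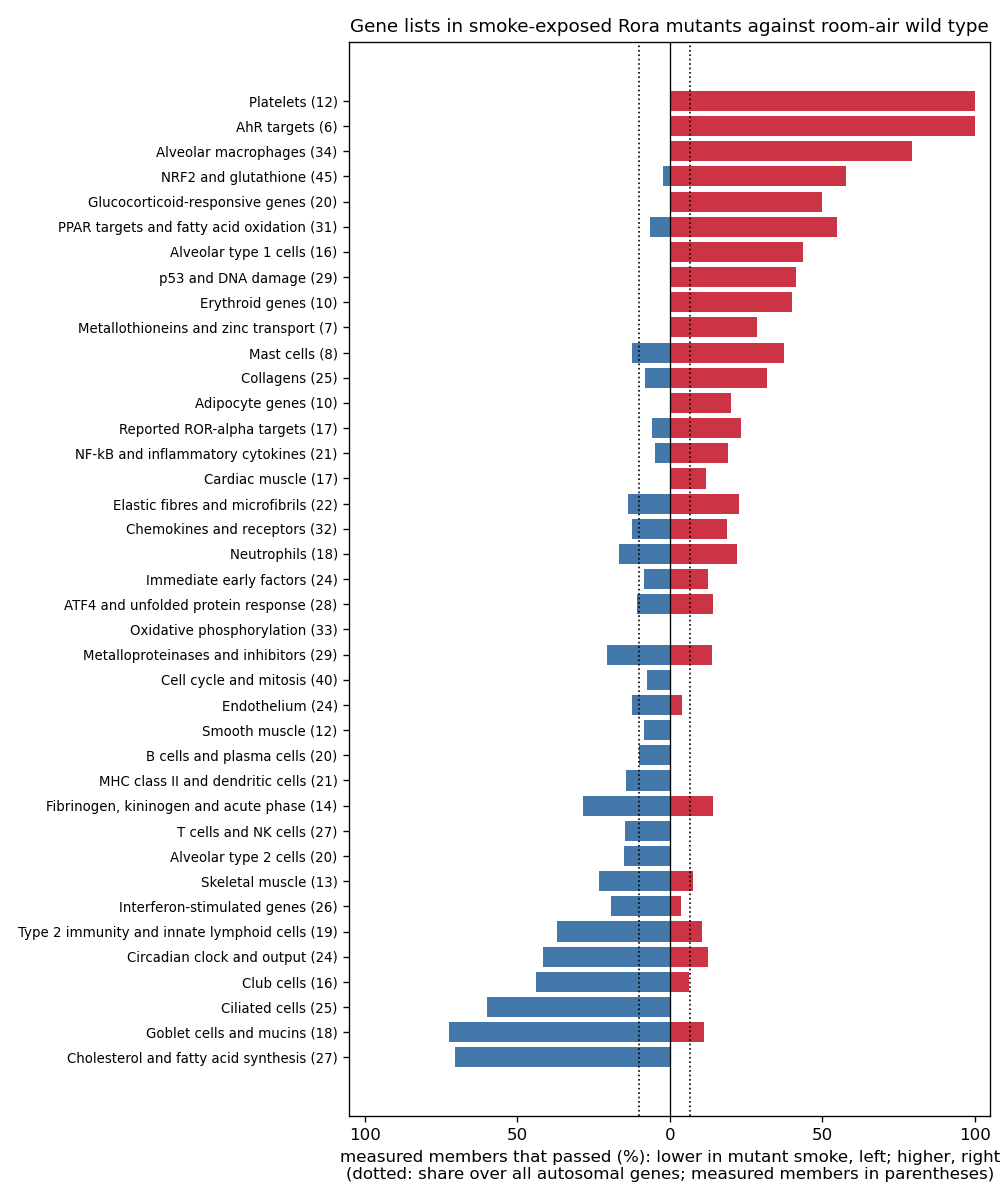
Share of the measured members of each gene list that passed, lower members to the left in blue and higher members to the right in red, in percent; the number measured is in parentheses and dotted lines mark the share over all autosomal genes (10% lower, 6.55% higher). Platelet and AhR genes reach 100% higher, while cholesterol, goblet and ciliated genes lie furthest to the lower side.

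All 12 measured platelet genes were higher in the mutant smoke lungs, with a median of 1.07. Gp9, a subunit of the von Willebrand factor receptor, read -1.01, -0.73, -0.84 and -0.76 in room air and 0.65, 0.66, 1.45 and 0.32 in the mutants, a rise of 1.60 ± 0.19 (limma adjusted p = 0.000319). Ppbp, a chemokine of platelet granules, read 0.17, 0.42, 0.15 and 0.08 and 1.72, 1.73, 2.19 and 1.19, a rise of 1.51 ± 0.17. The groups did not overlap for either gene, although the mutant arrays were spread by more than 1 unit for Gp9. Treml1 rose by 1.20 ± 0.14, the integrin Itga2b by 1.05 ± 0.13 and Pf4 by 0.83 ± 0.10. The list's median difference was 1.27 for smoke-exposed wild type against room air and -0.15 between the smoke groups. Because whole lung was measured, more cells of a type and more RNA per cell cannot be told apart here or in the cell lists below. Normexp left 5 of the 12.

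Red cell genes were less uniform. Of 10 measured, 4 rose and 0 fell; 2 rose without room-air replicate 1, 2 or 3 or mutant replicate 4, and normexp left 0. The anion exchanger Slc4a1 read -1.09, -1.27, -1.33 and -0.21 in room air and 0.01, -0.43, 1.32 and 0.31 in the mutants, so the groups overlapped, and it rose by 1.28 ± 0.33 (limma adjusted p = 0.0226). Epb42, a protein of the red cell membrane skeleton, rose by 1.19 ± 0.24. The list's median was 0.14, 0.06 and 1.18 within slides 1, 2 and 3.

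Many macrophage genes rose: 27 of 34 measured alveolar macrophage genes were higher and 0 lower, with a median of 0.53. Marco, a scavenger receptor, read 2.38, 2.66, 2.83 and 2.25 in room air and 4.80, 3.86, 3.82 and 4.32 in the mutants, a rise of 1.67 ± 0.21 (limma adjusted p = 0.000412). Gpnmb, a lysosome-associated glycoprotein of lipid-laden macrophages, read -1.92, -2.08, -1.78 and -2.25 and -0.76, -0.64, -0.63 and -0.60, a rise of 1.35 ± 0.11. Neither gene overlapped between the groups. The endolysosomal channel Mcoln3 rose by 1.08 ± 0.09, the chemokine Ccl6 by 0.96 ± 0.08, the oxidised-lipoprotein receptor Olr1 by 0.89 ± 0.07 and the protease Ctsk by 0.83 ± 0.12. In contrast to the AhR and platelet genes, the list had a median of 0.40 between the smoke groups and of 0.15 between wild-type smoke and room air. Marco, Gpnmb, Mcoln3, Ccl6 and Olr1 each exceeded their level in wild-type smoke lungs, by 0.81, 0.41, 0.50, 0.50 and 0.62 (limma adjusted p of 0.0416, 0.0416, 0.0111, 0.00462 and 0.000775). The mean level over the 34 genes was 0.54 to 0.72 on the room-air arrays and 1.10 to 1.33 on the mutant arrays. Normexp left 5 of the 27. Slc7a11 belongs to this list as well as to the NRF2 list.

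Several other receptor genes of immune cells were higher. Cd163l1, a scavenger receptor of the CD163 family, read -0.50, -0.54, -0.11 and 0.02 in room air and 1.79, 1.58, 1.48 and 1.40 in the mutants. All mutant arrays were above 1 and all room-air arrays near or below 0. The rise was 1.85 ± 0.17 (limma adjusted p = 4.77e-05), and the difference between the smoke groups was 1.35 (limma adjusted p = 0.0013). The formyl peptide receptors Fpr1 and Fpr2 rose by 0.81 ± 0.09 and 0.66 ± 0.14, and both were also above wild-type smoke. Neutrophil genes as a list were mixed, with 4 of 18 higher and 3 lower. The lower ones included Ltf, lactoferrin, at -2.04 ± 0.37, and Mmp9, a gelatinase, at -0.49 ± 0.08.

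Genes of PPAR signalling and fatty acid oxidation rose in 17 of 31 cases and fell in 2, with a median of 0.28. Pdk4, the kinase that shuts pyruvate out of the mitochondrial cycle, read -0.64, -0.52, -0.70 and -0.85 in room air and 0.82, 0.72, 0.47 and 1.06 in the mutants. The lowest mutant array was above the highest room-air array. The rise was 1.44 ± 0.17 (limma adjusted p = 0.000272), and the mutants were also above wild-type smoke by 0.98 (limma adjusted p = 0.00793). Ucp3, a mitochondrial carrier, rose by 0.83 ± 0.11, Cpt1a, which admits fatty acids to mitochondria, by 0.53 ± 0.07, the receptor Pparg by 0.54 ± 0.07 and the lipid droplet protein Plin2 by 0.43 ± 0.06. The 2 that fell were Ppara and its coactivator Ppargc1a, each at -0.47, named after their values were seen. The list shares Pparg and Cd36 with the macrophage list and Angptl4 and Pdk4 with a list of glucocorticoid-responsive genes. Of that list's 20 measured genes 10 rose and 0 fell, among them the kinase Sgk1 by 0.55 ± 0.09 and Mt2. All 33 measured genes of oxidative phosphorylation missed the threshold, with a median of 0.01. Normexp left 2 of the 17 PPAR genes.

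Sterol synthesis went the other way, with 19 of 27 measured cholesterol and fatty acid synthesis genes lower and 0 higher, beside 10% of all genes lower. Their median was -0.34. Sqle, which makes squalene epoxide, read 1.47, 1.37, 1.33 and 1.57 in room air and 0.95, 0.97, 0.67 and 0.82 in the mutants, a fall of -0.58 ± 0.07 (limma adjusted p = 0.000494). The groups were separate. Hsd17b7, Stard4 and Idi1, which act in or around the same pathway, differed by -0.66 ± 0.10, -0.63 ± 0.09 and -0.55 ± 0.06. The median was -0.22 between wild-type smoke and room air and -0.16 between the smoke groups. Normexp left 1 of the 19.

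Mucous cell genes held the largest fall of the comparison. In the goblet and mucin list 13 of 18 measured genes were lower and 2 higher, with a median of -0.71. Clca1, a secreted protein of mucous cells, read 4.42, 4.05, 4.79 and 2.04 in room air and -5.64, -5.78, -5.21 and -6.25 in the mutants. Room-air replicate 4 was the lowest of its group, still far above every mutant array. The fall was -9.55 ± 0.79 (limma adjusted p = 2.12e-05). Smoke-exposed wild type read -0.46, -3.77, -1.84 and -4.29, and the mutants were lower than these by 3.13 (limma adjusted p = 0.0392). Tff2, a trefoil peptide that stabilises mucus, read 1.12, 1.05, 1.34 and 0.45 and -2.42, -1.91, -1.62 and -2.52, a difference of -3.11 ± 0.23.

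Muc5b, the main gel-forming mucin of the mouse airway, read 2.16, 2.34, 2.23 and 2.02 in room air and -0.20, -0.29, -0.15 and -0.28 in the mutants. The 4 mutant arrays lay close together, all about 2 units below room air. The fall was -2.42 ± 0.10 (limma adjusted p = 7.76e-08), with -0.79 between the smoke groups (limma adjusted p = 0.00201) and -1.63 between wild-type smoke and room air. Muc5ac, the mucin of mucous metaplasia, fell by -1.82 ± 0.16 at its brightest probe; a further, dimmer probe gave -0.25 and did not pass. Agr2, a chaperone of mucin folding, fell by -2.85 ± 0.25, and Gp2, a glycoprotein of secretory and M cells, by -3.47 ± 0.26. The 2 that rose were the anion exchanger Slc26a4 at 1.15 and the mucin Muc16 at 0.43, named after their values were seen. The higher count was 1 without room-air replicate 1 or 3 or mutant replicate 1, 3 or 4. Normexp left 8 lower and 1 higher.

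**Figure D3:**
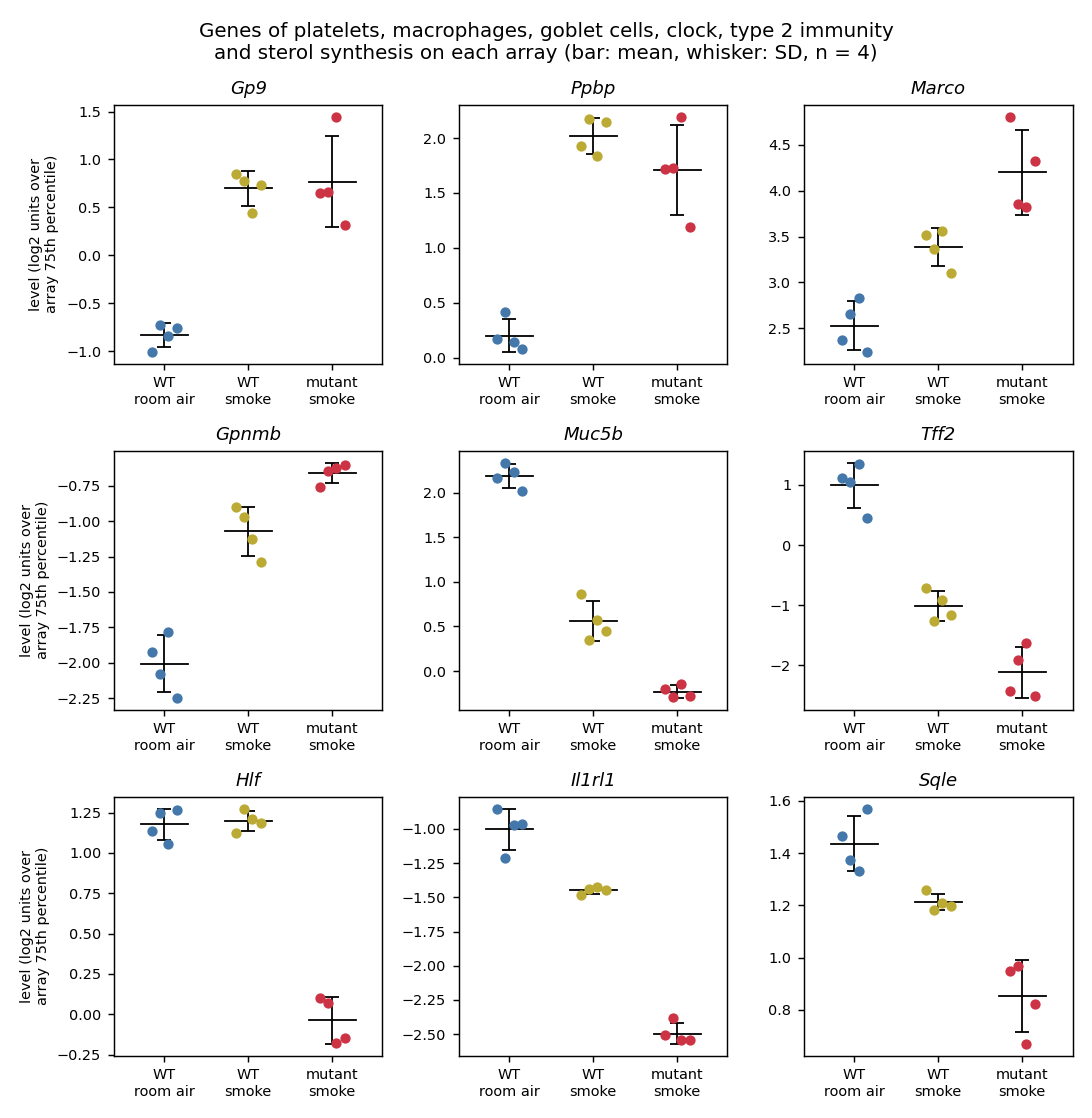
Levels of 9 genes on each of the 12 arrays, as log2 units relative to each array's 75th percentile, with the mean as a bar and the SD as whiskers (n = 4 per group). Gp9 and Ppbp are at like levels in both smoke groups, Hlf is at like levels in both wild-type groups, and Marco, Gpnmb, Muc5b, Tff2, Il1rl1 and Sqle step from room air through wild-type smoke to mutant smoke.

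Ciliated cell genes shifted less and more evenly. Of 25 measured, 15 fell and 0 rose, with a median of -0.35. Spag17, a protein of the ciliary central pair, read -0.15, -0.28, -0.35 and -0.40 in room air and -0.94, -0.85, -1.04 and -1.21 in the mutants, a fall of -0.72 ± 0.10 (limma adjusted p = 0.000752). Dnah5, an outer dynein arm motor, read 0.83, 0.92, 0.92 and 0.73 and 0.23, 0.50, 0.29 and 0.31, a difference of -0.52 ± 0.09. The groups were separate for both. The tektins Tekt1, Tekt2 and Tekt4, which build the axoneme, differed by -0.52 ± 0.08, -0.42 ± 0.07 and -0.51 ± 0.09, and Ccdc113 by -0.54 ± 0.09. The mean level over the list was 0.34 to 0.51 on room-air arrays and 0.06 to 0.09 on mutant arrays. The median was -0.19 between wild-type smoke and room air and -0.18 between the smoke groups. Normexp left 0 of the 15.

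Club cell genes were mixed, with 7 of 16 lower and 1 higher. Retnla, a secreted protein induced in type 2 immunity, was lower by -1.79 ± 0.22, Scgb3a1 by -0.60 ± 0.16, Lypd2 by -0.59 ± 0.13 and the receptor Cckar by -0.41 ± 0.07, whereas the carboxylesterase Ces1f was higher by 1.08 ± 0.11. The lower count was 4 without room-air replicate 3, and likewise without mutant replicate 2 or mutant replicate 4.

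In the alveolus, 3 of 20 type 2 cell genes fell and 0 rose, with a median of -0.0048. The lower count moved when an array was left out: 1 gene was lower without any 1 of the room-air arrays, mutant replicate 2, 3 or 4 or wild-type smoke replicate 3 or 4, and 1 was higher without mutant replicate 3. The epithelial alarmin Il33 read 3.04, 3.07, 3.36 and 3.24 in room air and 2.73, 2.53, 2.32 and 2.43 in the mutants, a fall of -0.67 ± 0.10 (limma adjusted p = 0.000929) that also separated wild-type smoke from room air (-0.74). Sftpc differed by -0.03 and did not pass. Type 1 cell genes rose in 7 of 16 cases, by small amounts, with a median of 0.19. Igfbp2, a growth factor binding protein, moved most among those named, by 0.96 ± 0.10. The count of 7 ranged from 2 to 4 without mutant replicate 1, 2 or 4 or without room-air replicate 1, 2 or 3. Endothelial genes passed in 4 of 24 cases, near the 16.6% of all genes: Lyve1, a lymphatic receptor, was higher by 0.79 ± 0.15, and Kdr, the receptor for vascular endothelial growth factor, Aplnr and Prox1 were lower by -0.29 ± 0.08, -0.54 ± 0.12 and -0.20 ± 0.06. The lower count was 1 without room-air replicate 1 or mutant replicate 4, and 2 were higher without mutant replicate 1 or wild-type smoke replicate 1.

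Of 24 circadian clock genes 10 fell and 3 rose, with a median of -0.19. Hlf, one of the PAR bZIP output factors of the clock, read 1.14, 1.25, 1.06 and 1.27 in room air, 1.13, 1.27, 1.21 and 1.18 in wild-type smoke and 0.10, 0.07, -0.18 and -0.15 in mutant smoke. The wild-type groups overlapped and the mutants lay about 1 unit below both. The fall from room air was -1.22 ± 0.08 (limma adjusted p = 3.29e-06), and the difference from wild-type smoke was -1.24 (limma adjusted p = 1.11e-05). Dbp, its sister factor, read 5.86, 5.84, 5.64 and 5.93 in room air and 4.85, 4.55, 4.90 and 4.87 in the mutants, a fall of -1.02 ± 0.09 and of -0.92 against wild-type smoke.

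Nr1d1, which encodes the repressor REV-ERB-alpha, read 1.42, 0.99, 0.70 and 1.46 in room air and 0.43, 0.05, -0.01 and 0.55 in the mutants. The room-air arrays were spread widely, and the highest mutant array was below the lowest of them. The fall was -0.89 ± 0.17 (limma adjusted p = 0.00479); further probes gave -1.07 and -0.33, the latter not passing. Ciart, a clock-controlled repressor, fell by -0.73 ± 0.10 and Bhlhe40 by -0.37 ± 0.07. Nfil3, a repressor that opposes Dbp and Hlf at shared sites, rose by 0.43 ± 0.08, and Clock was higher by 0.35, named after its value was seen. For Hlf, Dbp, Nr1d1, Ciart and Bhlhe40 the wild-type smoke lungs differed from room air by 0.02, -0.10, 0.09, -0.01 and 0.13, none of which passed. The hour of tissue collection is not given in the sources used here. Normexp left 3 of the 10 that fell and 0 of the 3 that rose; 5 rose without room-air replicate 3.

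Of 17 genes reported elsewhere as ROR-alpha targets, 4 rose and 1 fell, with a median of -0.01. Cyp7b1, an oxysterol hydroxylase, fell by -0.61 ± 0.09. The lipid droplet protein Cidec, the NF-kB inhibitor Nfkbia, the sterol exporter Abcg1 and the fatty acid receptor Cd36 rose by 0.57 ± 0.12, 0.45 ± 0.12, 0.45 ± 0.06 and 0.26 ± 0.06. Abcg1, Cidec and Cd36 are members of the macrophage list too.

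**Figure D4:**
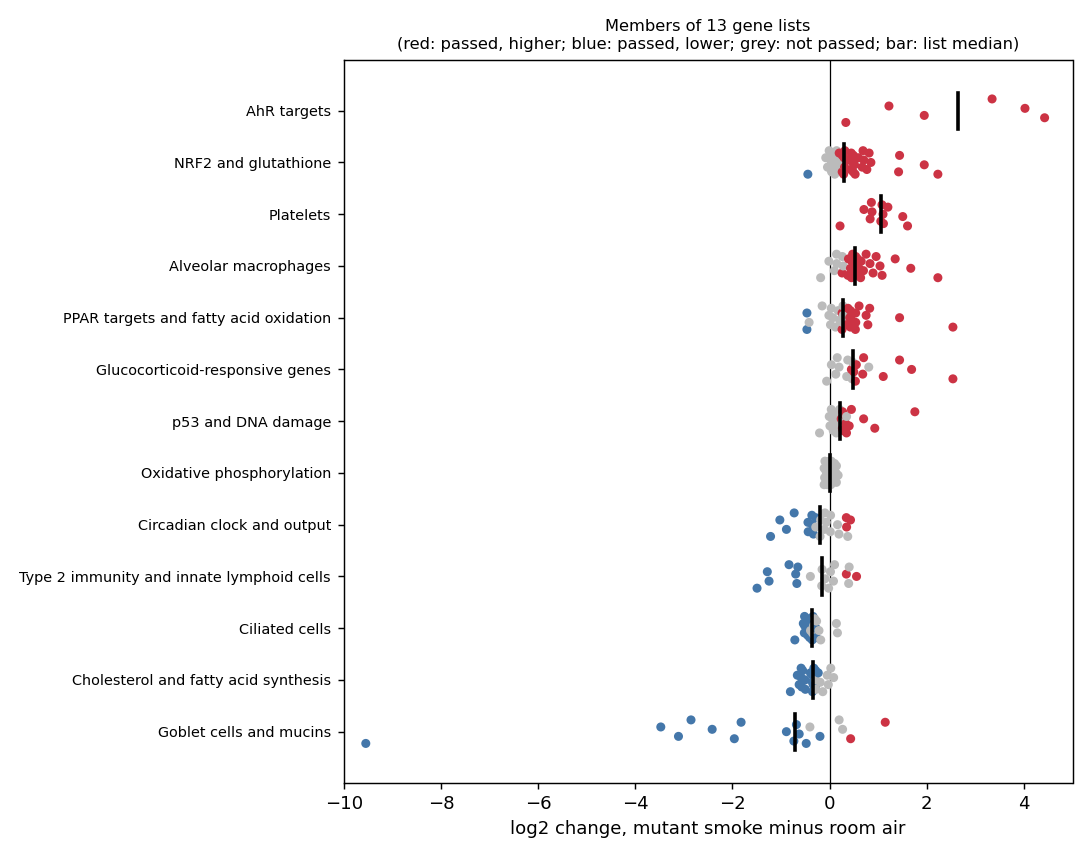
Change of every measured member of 13 gene lists, mutant smoke minus room air in log2 units, with the list median as a bar; red members passed and were higher, blue passed and were lower, grey did not pass. The AhR median is 2.65 and the goblet median -0.71, Clca1 lies at -9.55, and oxidative phosphorylation genes are grouped at 0.

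Type 2 immunity and innate lymphoid cell genes fell in 7 of 19 cases and rose in 2, with a median of -0.15. The higher count was 1 without room-air replicate 1, 2 or 4 or mutant replicate 1, 2 or 3. Il1rl1, the receptor for IL-33 on innate lymphoid cells, mast cells and regulatory T cells, read -0.86, -1.21, -0.97 and -0.97 in room air, -1.49, -1.44, -1.42 and -1.45 in wild-type smoke and -2.51, -2.38, -2.54 and -2.54 in mutant smoke. The mutants formed the lowest group without overlap. The fall was -1.49 ± 0.07 (limma adjusted p = 2.67e-07), with -1.05 between the smoke groups (limma adjusted p = 2.18e-05). Il17rb, the receptor for IL-25, read -4.37, -4.33, -4.62 and -3.97 in room air and -5.52, -5.65, -5.40 and -5.84 in the mutants, a fall of -1.28 ± 0.13 and of -1.08 against wild-type smoke (limma adjusted p = 0.000929).

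Arg1, arginase 1, read -3.25, -3.11, -2.97 and -3.24 in room air and -5.21, -4.25, -4.13 and -3.95 in the mutants, a fall of -1.25 ± 0.21, and mutant replicate 1 was the lowest array. Gata3, the lineage factor of these cells, fell by -0.65 ± 0.12. Kit, the stem cell factor receptor, rose by 0.55 ± 0.08, and it counts among mast cell genes too, of which 3 of 8 rose and 1 fell. There the proteases Mcpt4 and Cpa3 rose by 1.09 ± 0.22 (0.80, not passing, at a further probe) and 0.60 ± 0.17, and Hdc, which makes histamine, fell by -0.58 ± 0.10. Under normexp none of the type 2 genes passed, and the list median was 0.09.

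Lymphocyte genes mostly missed the threshold. Of 27 T and NK cell genes 4 fell and 0 rose, Icos by -0.70 ± 0.15, Ifng by -0.79 ± 0.20, Tbx21 by -0.55 ± 0.12 and Lat by -0.50 ± 0.12, and the median was -0.38 beside -0.0061 for all genes. The lower count was 8 without mutant replicate 3. Of 20 B and plasma cell genes 2 fell, a share no larger than the 10% of all genes, Tnfrsf17 by -0.78 ± 0.21 and Blnk by -0.52 ± 0.14; 6 were lower without mutant replicate 3 and 0 without room-air replicate 3 or mutant replicate 2 or 4. Of 21 MHC class II and dendritic cell genes 3 fell, beside 10% of all genes. They were the chemokine Ccl17 by -1.05 ± 0.14, Batf3, a factor of cross-presenting dendritic cells, by -0.76 ± 0.12, and Siglech by -0.87 ± 0.23. Without mutant replicate 2, 5 genes of this list were lower. The immunoglobulin segment Igkv8-16 was well above background on 4 room-air and 0 mutant arrays, at least 5.39-fold lower in the mutants. Such bounds set the brighter group's mean against the dimmest signal still well above background on the arrays of the dimmer group.

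Inflammatory mediators did not move as a group. Of 32 chemokines and receptors 6 rose and 4 fell. Besides the platelet chemokines, Ackr3, a scavenging receptor for CXCL12, rose by 0.76 ± 0.13 and Ccl12 by 0.71 ± 0.18, whereas Cxcl14, an epithelial chemokine, read 3.55, 3.68, 3.52 and 3.69 in room air and 2.55, 2.69, 2.91 and 2.53 in the mutants, a fall of -0.94 ± 0.09 (limma adjusted p = 6.25e-05). The difference between the smoke groups for Cxcl14 was -0.66 (limma adjusted p = 0.00213). Without room-air replicate 1 the chemokine counts were 3 higher and 3 lower, without room-air replicate 2 they were 3 and 5, and without mutant replicate 4 the lower count was 2. Interferon-stimulated genes fell in 5 of 26 cases and rose in 1, the sensor Ddx58 at -0.66 ± 0.12 against Rsad2 at 0.99 ± 0.27. Further probes of Ddx58 gave 0.04, 0.08 and -0.42 and those of Rsad2 0.79 and 0.66, none of which passed. The lower count was 3 without room-air replicate 1 or mutant replicate 4, and the higher count was 0 without these or without room-air replicate 2 or 3 or mutant replicate 3. Of 21 NF-kB and cytokine genes 4 rose and 1 fell; Tnfaip2 rose by 0.73 ± 0.06 and the prostaglandin synthase Ptgs2 by 0.68 ± 0.14, and 2 rose without room-air replicate 2 or 4 or mutant replicate 4. The single fall was lost without room-air replicate 2, 3 or 4, mutant replicate 1, 2 or 4 or wild-type smoke replicate 2. Ptgs2 was lower in mutant than in wild-type smoke lungs by 0.56 (limma adjusted p = 0.0373).

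Immediate early factors rose in 3 of 24 cases and fell in 2, beside 6.55% of all genes higher and 10% lower. Myc was at 0.45 ± 0.06 (further probes gave 0.53, passing, and 0.34, not passing) and Egr3 at -1.19 ± 0.23. Without room-air replicate 2, 1 rose. Of 28 genes of the ATF4 and unfolded protein responses 4 rose and 3 fell, beside the same shares of all genes. Slc3a2, the partner chain of the cystine importer, differed by 0.29 ± 0.06 (0.22, not passing, at a further probe). The chaperone partner Sdf2l1 differed by -0.41 ± 0.07. The lower count was 5 without mutant replicate 3. Of 40 cell cycle genes 3 fell, a smaller share than the 10% of all genes, Top2a by -0.53 ± 0.13, Kif11 by -0.59 ± 0.16 and Birc5 by -0.42 ± 0.13, and 1 to 5 were lower when an array was left out, with 1 without room-air replicate 1, 3 or 4 or mutant replicate 1 or 4 and 5 without room-air replicate 2. The list median of -0.17 was 0.01 under normexp and 0.13 within slide 2.

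Matrix genes moved in both directions. Mmp3, stromelysin, read 1.22, 1.50, 1.35 and 1.41 in room air and -0.29, 0.14, 0.13 and -0.20 in the mutants, with no overlap, a fall of -1.42 ± 0.10 (limma adjusted p = 8.47e-06). Against wild-type smoke it was lower by 1.12 (limma adjusted p = 0.000158). In a list of 29 measured metalloproteinases and inhibitors that also holds cysteine proteases, 4 rose and 6 fell. Among the rises were the cysteine proteases Ctsk and Ctss, by 0.83 ± 0.12 and 0.45 ± 0.07, and Mmp14 by 0.38 ± 0.09. Elastic fibre genes rose in 5 of 22 cases and fell in 3. The falls numbered 0 without room-air replicate 4 or mutant replicate 4 and 1 without mutant replicate 1. Mfap4, a microfibril protein, read 5.11, 5.31, 5.34 and 5.27 and 6.32, 5.96, 5.77 and 6.12, a rise of 0.79 ± 0.12. Against wild-type smoke it was higher by 0.90 (limma adjusted p = 0.00245), and wild-type smoke minus room air was -0.11. Elastin (Eln) rose by 0.54 ± 0.11, fibrillin 1 (Fbn1) by 0.36 ± 0.08 and the cross-linking enzyme Lox by 0.64 ± 0.13.

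Collagen genes rose in 8 of 25 cases and fell in 2. Col6a1 rose by 0.50 ± 0.09, the basement membrane chains Col4a2, Col4a3 and Col4a4 by 0.34 ± 0.09, 0.30 ± 0.08 and 0.39 ± 0.09, and Col8a1 read 2.25, 2.19, 2.01 and 2.36 in room air and 1.15, 1.51, 1.40 and 1.08 in the mutants, a fall of -0.92 ± 0.10 (limma adjusted p = 0.000175). Without room-air replicate 1 or 3, 3 collagens rose and 2 fell, and without mutant replicate 1 or 4, 4 rose. Without mutant replicate 2, 5 rose and 7 fell, and without room-air replicate 2, 1 fell.

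Genes of other tissues passed in both directions, beside 6.55% of all autosomal genes higher and 10% lower. Of 17 cardiac muscle genes 2 rose, phospholamban (Pln) by 0.74 ± 0.13 and Myh7 by 0.40 ± 0.08, and 4 rose without wild-type smoke replicate 2. Of 13 skeletal muscle genes 1 rose and 3 fell, and of 12 smooth muscle genes 1 fell. The skeletal rise was lost without room-air replicate 2, 3 or 4, any 1 of mutant replicates 1 to 3 or wild-type smoke replicate 1, 3 or 4, and 2 smooth muscle genes fell without mutant replicate 2 or wild-type smoke replicate 1. Adipocyte genes rose in 2 of 10 cases, Cidec and the lipase Lipe by 0.77 ± 0.08 (further probes of Lipe gave 0.81 and 0.10, the latter not passing), with the defining gene Adipoq at 0.66 and not passing. Of 14 measured acute phase and clotting genes 2 rose and 4 fell, with 1 lower without room-air replicate 3 or mutant replicate 4 and 2 without room-air replicate 1 or 4 or mutant replicate 2 or 3. One of the risers was Kng1, kininogen, which was well above background on 0 room-air, 0 wild-type smoke and 4 mutant arrays, and at least 2.66-fold higher in the mutants than in room air. The other was Serpina3n, at 0.66 ± 0.10.

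Of the 15 largest rises of genes with a full name, some belonged to no list. Among these, Lrrc15, a marker of activated fibroblasts, and the laminin chain Lama1 were well above background on 0 room-air and 4 mutant arrays, at least 2.49-fold and 3.92-fold higher. Serpina3m, a protease inhibitor, read -1.16, -1.12, -1.11 and -1.03 in room air and 0.83, 0.72, 0.57 and 0.98 in the mutants. The groups were more than 1 unit apart on every array, and the rise was 1.88 ± 0.08 (limma adjusted p = 1.05e-07). Stra6l rose by 1.96 ± 0.16, Ppp1r3g, a glycogen-targeting subunit, by 1.98 ± 0.29, and the carboxylesterase Ces1h by 1.85 ± 0.13. In wild-type smoke lungs Serpina3m, Stra6l, Ppp1r3g and Ces1h also passed against room air, at 1.54, 1.32, 1.55 and 1.79.

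Among the 15 largest falls of genes with a full name (clone, Rik, Gm and LOC names were left out), Lrmda and Ooep, like Rora, differed from both wild-type groups at like size. Lrmda, at chr14:21844556-21844615, read 1.24, 1.17, 1.18 and 1.15 in room air, 1.29, 1.28, 1.23 and 1.33 in wild-type smoke and -1.50, -1.47, -1.47 and -1.60 in mutant smoke. The 8 wild-type arrays lay close together and the mutants more than 2 units below them. The fall from room air was -2.70 ± 0.05 (limma adjusted p = 1.61e-11) and the difference from wild-type smoke -2.80 (limma adjusted p = 4.23e-11). Ooep, at chr9:78163707-78163766 on the chromosome that holds Rora, read -2.64, -2.51, -2.41 and -2.38 in room air and -5.72, -4.45, -5.77 and -5.73 in the mutants. The fall was -2.93 ± 0.24, and against wild-type smoke it was -2.97 (limma adjusted p = 6.54e-05).

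Most of the remaining large falls also passed in wild-type smoke against room air. Entpd8, an ectonucleotidase, fell by -2.75 ± 0.15 in the mutants and stood at -2.89 in smoke-exposed wild type. Cldn22, a claudin, fell by -2.08 ± 0.29, with -1.88 in smoke-exposed wild type. The phospholipase Pla2g5 read -3.79, -3.96, -3.76 and -3.95 in room air and -5.25, -6.17, -6.19 and -6.23 in the mutants, a fall of -2.09 ± 0.22, and it also fell between the smoke groups (-1.06, limma adjusted p = 0.0197). Slc38a11 and Sult2a2 were well above background on 4 room-air and 0 mutant arrays, at least 3.96-fold and 2.93-fold lower in the mutants.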

How the data were processed

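Whole lung RNA (100 ng per mouse) was labelled with Cy3 and hybridised to 1-colour Agilent arrays, which the authors scanned and read with Feature Extraction 9.5.3.1, per the submitters' processing notes. Per the file headers, the deposited processed signal is a linear, background-corrected intensity, on probes placed on build mm8, and the deposited spot mean and local background are uncorrected intensities. The deposited background and saturation flags are other values, coded 0 or 1 per the file headers. The authors' value table holds log2 intensities with the same median, 6.79, on every array; it served as an alternative only.

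Spots the scanner marked as outliers were left out and spots of a probe averaged. The log2 processed signal minus the array's log2 75th percentile was fitted with limma 3.58.1 (lmFit, eBayes; R 4.3.3) on all 12 arrays with 1 mean per group. A probe entered the fit when 4 or more of the 8 arrays compared had it well above background and no group had fewer than 3 values. Symbols were updated through RefSeq; 14982 of 18761 autosomal genes matched. The number of arrays limits the precision. The model script was tested on simulated data. Python 3.11.15 with pandas 2.3.3 made the tables and matplotlib 3.10.9 the figures.

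Genes named were those with the 15 largest rises and the 15 largest falls, leaving out clone, Rik, Gm, LOC and accession names, provided that they passed, that the groups did not overlap and that each array of the brighter group was above background; Rora, Cyp1b1 and Angptl4; and up to 6 members per list that passed, by smallest p. This gave 187 genes, 98 higher and 89 lower; a few are not reported here but stay in every count. The members, lists and tests were chosen with earlier results of these data known. Tests were two-sided. Alternatives covered background correction, normalization, the filter, slide and replicate blocks, and each array left out.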

Additional observations from a re-analysis of the deposited data

Results flagged for a closer look

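In 25 of 374 groups of 4 arrays, 1 array stood apart from the other 3, with a gap to the nearest array, as a share of the group's range, above Dixon's critical value for 4 arrays. Chance alone flags about 1 in 20 such groups, and no array was flagged more than 5 times. The gap as a share of the range is given for each, and the cause of none was tested.

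In the mutants, replicate 1 was low for Actn3 (0.853), Cyp1a1 (0.896) and Nfil3 (0.988) and high for Muc1 (0.885) and Pla2g5 (0.946). Replicate 2 was low for Dbp (0.849), Hp (0.861) and Lamp3 (0.838) and high for Ooep (0.965), where it read -4.45 beside -5.72 to -5.77. Replicate 3 was high for Ier5 (0.851) and Lat (0.855) and low for Pparg (0.919). Replicate 4 was low for Ccl12 (0.920) and Igkv8-16 (0.929).

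In room air, replicate 2 was high for Plin2 (0.954), Pparg (0.913) and Rora (0.849) and low for Slc3a2 (0.862). For Rora the range of the group was only 1.07 to 1.16. Replicate 3 was high for Ccl12 (0.848) and Nfil3 (0.859) and low for Stat2 (0.882). Replicate 4 was low for Ccl6 (0.910), Nfkb1 (0.965), Nqo1 (0.962) and Scgb3a1 (0.851).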

How the results depend on the processing

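Background correction changed the counts most: normexp on the raw spot signals gave 64 genes higher and 65 lower (72 and 87 probes), in place of 1229 and 1880 genes (1755 and 2969 probes). Leaving out 1 array at a time gave 809 to 1188 genes higher, 1254 to 1875 genes lower, 1107 to 1799 probes higher and 1950 to 2940 probes lower. The lowest of these came without mutant replicate 4, and the cause was not tested. Higher genes made up 51.2% of the calls with median scaling and 46.9% with quantile normalization. With the slide as a block, 2583 of the 3109 genes passed again, and 3093 had the same sign within all 3 slides. Within slides 2 and 3 Cyp1b1 differed by 4.69 and 4.14, and on no setting did Rora, Cyp1b1 or Angptl4 miss the threshold of the fit. Of the other 184 named genes 43 passed in every fitted setting that tested them; normexp ended 129 calls and turned 11, the slide block ended 11 and turned 0, and the cause was not tested.

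Under normexp the turned values were Actn3 0.086, Egr3 0.078, Kif11 0.17, Myh2 0.19, Prox1 0.11, Siglech 0.11, Slc38a11 0.0046, Sult2a2 0.060, Tnfrsf17 0.10, Top2a 0.049 and Upk3a 0.071, and list medians turned for type 2 immunity (0.088), cell cycle (0.015) and acute phase genes (0.011). Within slide 1 the sign turned for Muc1 (0.0050) and the skeletal muscle median (-0.048). Within slide 2 it turned for Siglech (0.10) and for the medians of metallothionein (-0.053), adipocyte (-0.032), MHC class II (0.039), mast cell (-0.062), cell cycle (0.13) and smooth muscle genes (0.060). Within slide 3 it turned for the neutrophil median (0.040). A slide holds 1 or 2 arrays of a group, so values within it have no test.

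The groups share replicate numbers, but the labels do not say that the numbers pair the mice. The correlation of the deviations from the group means was 0.04, 0.20, 0.22 and -0.06 for numbers 1 to 4. The arrays of numbers 1, 2 and 3 shared a slide, and those of number 4 did not. Room-air and mutant arrays that shared a slide but not a number gave 0.09 and -0.01. Blocking on the replicate number gave 1061 higher and 1781 lower genes (1525 and 2852 probes), and 12 of the 184 named genes lost their call. Dim probes near background may be the least certain, which was not tested. Another 10675 autosomal probes were too dim or had too few values to be kept.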

Other observations

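On chromosome 9, 359 genes other than Rora had a probe within 20 Mb of the Rora probe on build mm8. Of these 39 were higher and 49 lower in mutant smoke lungs (24.5%), beside 42 higher and 83 lower of 712 genes on the rest of the chromosome (17.6%), given as a description without a test of the difference. The genes of this interval include Ooep and, among those of the lists above, Cyp1a1 and Gclc. They also include Gsta1, Gsta2 and Me1, members of the NRF2 list that rose, by 0.53, 0.70 and 0.26. Chosen after their values were seen, Lingo1, a neuronal surface protein, read -5.06, -4.75, -4.81 and -4.21 in room air and -5.96, -6.41, -6.35 and -6.66 in the mutants, and it differed by -1.64 ± 0.18 from room air and by -1.68 from wild-type smoke. Leo1, a subunit of the PAF1 transcription elongation complex, read -2.47, -2.20, -2.09 and -2.21 in room air and -3.91, -3.83, -3.40 and -3.35 in the mutants, and it differed by -1.38 ± 0.13 from room air and by -1.34 from wild-type smoke. Neither gene's arrays overlapped between room air and mutants, and for both the difference between the wild-type groups was small, 0.04 and -0.04. Lingo1 was well above background on 1 of 4 mutant arrays.

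Transcripts of the interval with clone names, which the naming rule leaves out, changed in both directions. C920006O11Rik read -2.95, -2.80, -2.92 and -3.12 in room air and -5.63, -5.44, -5.72 and -5.70 in the mutants, and it differed by -2.67 ± 0.09 from room air and by -3.02 from wild-type smoke. E130120C16Rik, 251 kb before the Rora probe, differed by -1.25 and -1.33 from these groups. Whether it lies within the Rora gene was not tested. Higher in the mutants were 9330159M07Rik, by 1.31 from room air and 1.21 from wild-type smoke, and 4930579C12Rik, by 1.06 and 1.31. 2810410P21Rik read -7.34, -6.56, -6.38 and -6.94 in room air, where it was well above background on 1 of 4 arrays, and -3.70, -3.58, -3.78 and -3.57 in the mutants, where it was so on 4 of 4. These transcripts too were named after their values were seen.

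On the X chromosome, left out of the comparison above, 175 of 945 kept probes passed (18.5%), beside 16.5% of autosomal probes. On the Y chromosome 7 of 8 kept probes passed.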
